A study of Caenorhabditis elegans with 6 samples.

Results

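The genes described here encode the first enzymes of fatty acid breakdown in the nematode Caenorhabditis elegans: the acyl-CoA synthetases (acs), which activate fatty acids, the acyl-CoA dehydrogenases (acdh) and the enoyl-CoA hydratases (ech). Members were all rows of the deposited expression table whose gene name began with acs, acdh or ech followed by a hyphen and a number. This rule found 44 of 46950 rows: 21 acs, 13 acdh and 10 ech genes. RNA-seq was made from polyA RNA of whole worms in 2 groups of 3 libraries each, Control and THz treated. The series title gives the terahertz radiation as 0.26 THz. The sources used here do not give strain, age, food, power or length of exposure. The labels do not say whether replicates were grown apart, so the spread behind each p-value is that of these 6 libraries and may be only technical.

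A fatty acid must be joined to coenzyme A before it can be broken down or built into lipids, and acyl-CoA synthetases make this thioester. In each turn of beta-oxidation an acyl-CoA dehydrogenase then puts a double bond into the chain, an enoyl-CoA hydratase adds water across it, and a hydroxyacyl-CoA dehydrogenase and a thiolase complete the turn and release acetyl-CoA. In C. elegans these reactions run in mitochondria and peroxisomes, and some members have taken on other tasks: acdh-1 and ech-6 act in the propionate shunt, which breaks down propionate when vitamin B12 is low, and acs-7 acts in the synthesis of ascaroside pheromones.

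The members lie on all chromosomes, 8 on I, 9 on II, 6 on III, 7 on IV, 9 on V and 5 on X. Values are FPKM as deposited, that is, fragments scaled for gene length and library size, so that levels of different genes can be set side by side. A gene was tested when 3 or more of the 6 libraries reached 1 FPKM, which kept 12174 genes and 35 members: 16 acs, 10 acdh and 9 ech. Reads worked back from the FPKM values put the libraries between 19079440 and 21977418 reads.

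The libraries did not all resemble each other. Across the tested genes Control 2 and Control 3 had the lowest correlation of log2 values within a group (Pearson 0.946), against 0.989 to 0.992 between THz libraries. Summed FPKM of 12 moulting genes was 187, 60.4 and 268 in Control 1, 2 and 3 and ranged from 102 to 141.6 in the THz libraries. The sum of 7 epidermal markers had the same order in the Control libraries, with 441, 132 and 606. Of these sums sqt-3 held 319, 44.4 and 446. Control 2 was lowest and Control 3 highest in 5 of the 6 tested epidermal markers. The untested bli-1 had the opposite order in Control. Markers of body wall muscle had lower means in the THz libraries for 6 of 6 genes, 4 of them at an unadjusted limma p below 0.05, with summed FPKM of 1337 to 1895 in Control and 1152 to 1362 in THz. The 7 intestinal markers summed to 2710 to 3578 FPKM in Control and 2676 to 3403 in THz, and the 6 germline markers to 564 to 614 in Control and 618 to 638 in THz. The 7 neuronal markers summed to 306 to 331 FPKM in Control and 299.5 to 314 in THz, with 5 of 7 lower in THz, 2 of them at an unadjusted limma p below 0.05. The 6 sperm markers summed to 5.63 to 14.6 FPKM in Control and 9.80 to 13.7 in THz, with 3 of the 4 tested higher in THz; spe-38 alone was at 0 in 5 libraries. Whether fewer cells of a type or less RNA per cell gave a lower level cannot be told apart in whole-worm RNA.

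No member differed between THz and Control at an adjusted p below 0.05, in limma with Benjamini-Hochberg adjustment over all tested genes (0 of 35 members, against 0.0% of all tested genes). The smallest adjusted p of a member was 0.827. At an unadjusted p below 0.05 there were 2 members lower in THz, acs-14 and acs-16, against 4.01% of all tested genes, and 0 members higher, against 1.86%. In all, 714 of the tested genes reached that unadjusted p. A second fit, limma-voom on the recovered reads, called 0 of 13642 genes. In it 774 genes and 3 members (acs-14, acs-16 and acdh-6) had an unadjusted p below 0.05. The median log2 difference, THz minus Control on the log2(FPKM + 1) scale, was -0.03 over the 35 members and 0.00 over all tested genes, with 15 members higher and 20 lower. Here and below, higher and lower in a count of genes refer to the sign of this log2 difference. These counts depended on Control 2. Without it, 10 of 34 tested members had an unadjusted limma p below 0.05, and so did 2121 of 11963 genes. The adjusted threshold was then passed by 1 member (acs-17) and by 237 genes.

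Groups of libraries that did not overlap were about as common among the members as among all tested genes. The 3 THz libraries all lay above the Control libraries for 2 of 35 members (5.71%), acs-4 and ech-2, against 6.44% of all tested genes. They all lay below for 3 members (8.57%), acs-14, acs-16 and acs-22, against 7.33%. For 19 of the 35 members all 3 THz values fell inside the range of the Control values, against 41.7% of all tested genes.

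**Figure D1:**
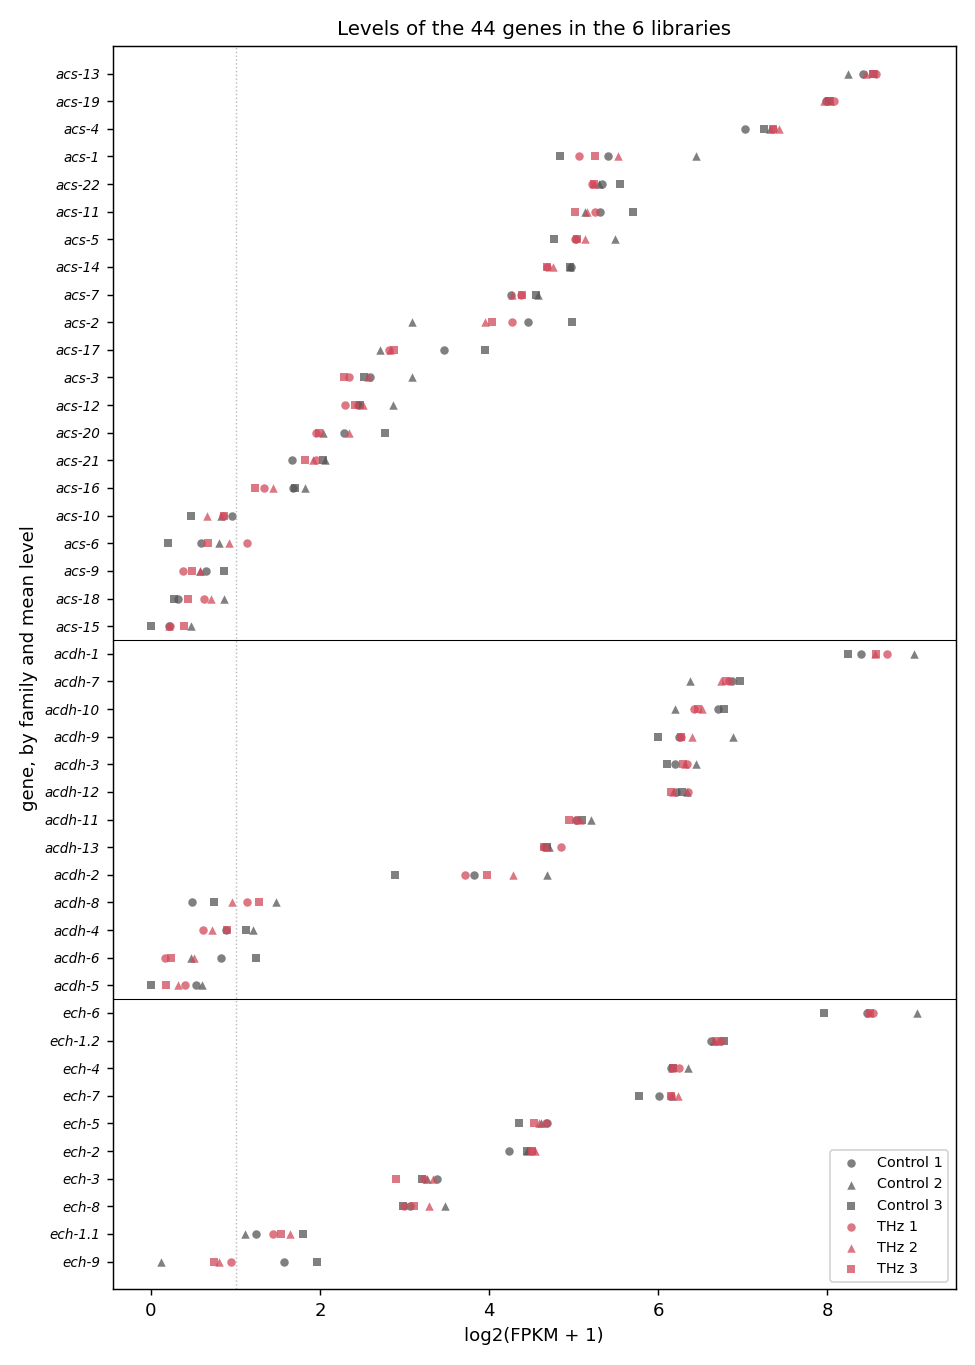
Level of each of the 44 genes on the log2(FPKM + 1) scale, 1 point per library, Control in grey and THz in red, with the shape giving the replicate number; the dotted line is 1 FPKM. The grey points spread farther than the red for most genes, and acs-13, acdh-1 and ech-6 lead their families.

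Among the acyl-CoA synthetases the most abundant were acs-13, acs-19 and acs-4. FPKM of acs-13 was 343, 303 and 372 in Control 1 to 3 and 379.5, 351 and 374 in THz 1 to 3, so that the groups overlapped (log2 difference 0.12, SE 0.10). For acs-19, an acetyl-CoA synthetase that activates acetate, the 6 libraries were close together, at 252, 261 and 258 FPKM in Control and 268, 248 and 260.4 in THz. It varied less between libraries than acs-13 and acs-4.

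Of the 16 tested synthetases 13 (81.25%) were lower in THz and 3 higher, with a median log2 difference of -0.18. Of all tested genes 49.5% were lower. The split was 12 lower to 4 higher after quantile normalization, and 10 to 6 both with library weights and without Control 2. It was 11 to 5 without Control 3 and 14 to 2 without THz 1. No synthetase passed the adjusted threshold in the main fit. With library weights acs-4, acs-14, acs-16 and acs-17 passed it, and without Control 2 acs-17 did. All 6 muscle markers, 5 of 7 neuronal markers, 5 of 7 intestinal markers and 9 of 11 tested moulting genes were also lower in THz. Of the other markers, 3 of 6 tested epidermal, 1 of 6 germline and 1 of 4 tested sperm genes were lower. The part of these marker sets in the split of the synthetases was not tested.

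For acs-14, FPKM was 30.3, 29.97 and 30.01 in Control and 24.6, 26.0 and 24.8 in THz. Every THz library lay below every Control library, with a mean of 25.1 ± 0.783 (SD, n = 3) against 30.1 ± 0.175 (log2 difference -0.25, SE 0.08; adjusted p = 0.827). Its Control values had the narrowest range of the 35 tested members. The gene lies on chromosome V at 9508079 to 9510476 (WBcel235, plus strand).

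For acs-16, a low gene, FPKM was 2.19, 2.55 and 2.27 in Control and 1.52, 1.71 and 1.34 in THz. These groups also did not overlap (log2 difference -0.40, SE 0.17; adjusted p = 0.827). The recovered reads gave a log2 difference of -0.62 (SE 0.22) in limma-voom, where no pseudocount of 1 FPKM shrinks a low gene.

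Both C. elegans relatives of the mammalian fatty acid transporter FATP4, acs-20 and acs-22, which are needed for the barrier function of the cuticle, had lower means in THz. FPKM of acs-22 was 39.3, 38.4 and 45.8 in Control and 36.3, 36.9 and 36.8 in THz. The THz libraries were all lower, but by little against Control 1 and 2 (log2 difference -0.16, SE 0.09, adjusted p = 0.827). FPKM of acs-20 was 3.85, 3.10 and 5.84 in Control and 2.85, 4.09 and 2.95 in THz. Its groups overlapped, and Control 3 held the highest value of both genes.

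The gene acs-4 went the other way. Its FPKM was 129.7, 159 and 152 in Control and 163, 171 and 163 in THz. All THz values lay above the Control values, with Control 1 lowest (log2 difference 0.18, SE 0.09; adjusted p = 0.827).

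Some synthetases varied most among the Control libraries themselves. For acs-2, a mitochondrial enzyme that fasting induces through the nuclear receptor NHR-49, FPKM was 21.0, 7.48 and 30.5 in Control and 18.3, 14.5 and 15.3 in THz. Control 3 was 4.08 times Control 2, and the 3 THz libraries lay between them (log2 difference -0.09, SE 0.43, but -0.64 without Control 2 and 0.31 without Control 3). For acs-17, FPKM was 10.1, 5.52 and 14.4 in Control and 6.01, 6.07 and 6.31 in THz. The THz libraries were nearly equal and just above Control 2, the lowest of all (log2 difference -0.54, SE 0.30, adjusted p = 0.827). Without Control 2 the log2 difference of acs-17 was -0.88 (SE 0.18), with an adjusted p of 0.0481; its exons share 109 bases with C46F4.3 on the other strand.

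The order of the Control libraries was turned round for acs-1, which activates monomethyl branched-chain fatty acids. Its FPKM was 41.5, 86.0 and 27.6 in Control and 32.5, 44.8 and 37 in THz. Control 2 was 3.11 times Control 3 (log2 difference between groups -0.29, SE 0.36, but 0.15 without Control 2 and -0.65 without Control 3). A narrower spread of the same order was seen in acs-5, with 31.7, 43.8 and 26.3 FPKM in Control and 31.3, 34.1 and 31.8 in THz.

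The remaining named synthetases had overlapping groups. For acs-3, which acts in the epidermis and limits fat storage with the nuclear receptor NHR-25, FPKM was 5.04, 7.51 and 4.75 in Control and 4.07, 4.93 and 3.85 in THz (log2 difference -0.34, SE 0.21). For acs-7, which activates ascaroside side chains, it was 18.1, 22.9 and 22.4 in Control and 19.8, 18.3 and 19.97 in THz (log2 difference -0.12, SE 0.12). Here 1 Control library was below all THz libraries and the other two were above them. For acs-11 it was 38.7, 34.0 and 51.2 in Control and 37.1, 34.6 and 31.3 in THz (log2 difference -0.24, SE 0.15). Of the other tested synthetases, acs-12 and acs-21 held between 2.19 and 6.28 FPKM in all libraries.

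**Figure D2:**
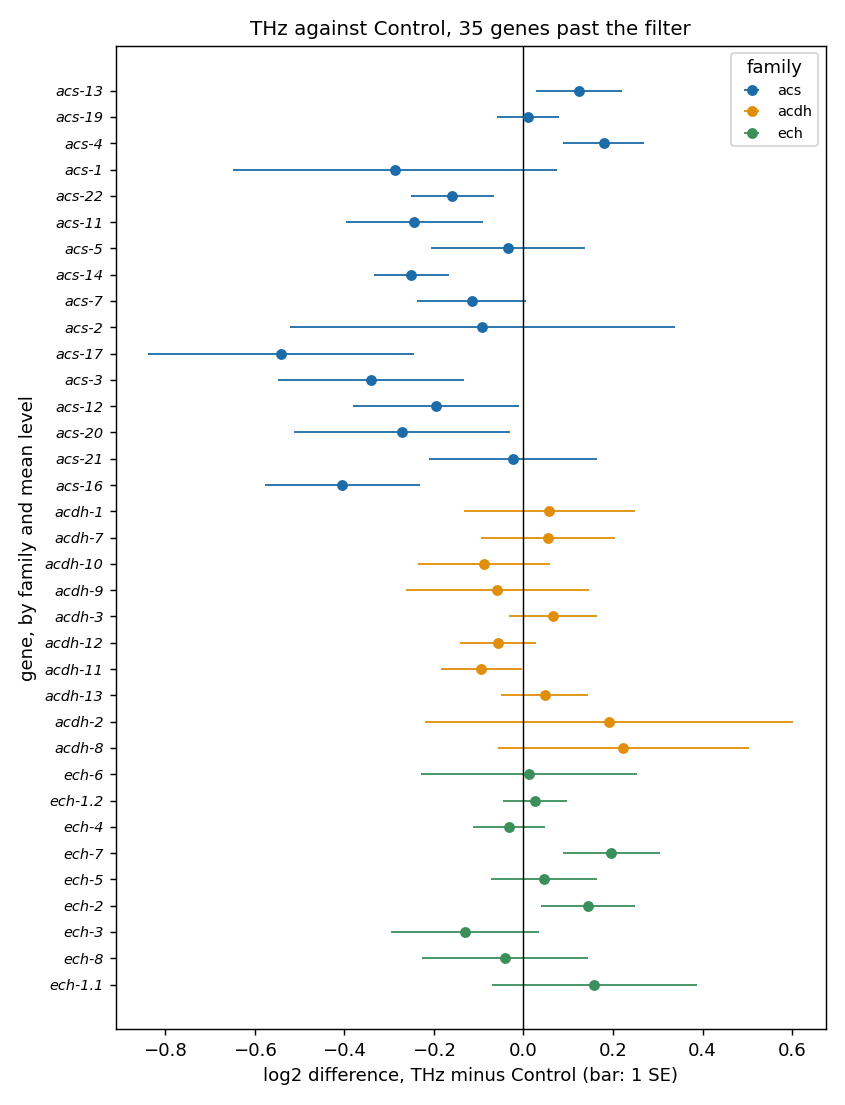
Log2 difference, THz minus Control on the log2(FPKM + 1) scale, with its standard error from limma, for the 35 tested genes ordered by family and mean level. Most acs points lie left of 0, the median being -0.18, and the widest bars belong to acs-2 and acdh-2.

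Of the 10 tested acyl-CoA dehydrogenases 6 were higher and 4 lower in THz, with a median log2 difference of 0.05 that turned to -0.000852 without Control 1, -0.03 without Control 3 and -0.01 without THz 1. None had groups that did not overlap, and in 7 of the 10 every THz value fell inside the Control range.

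The most abundant was acdh-1, the dehydrogenase of the propionate shunt. Its FPKM was 337, 521 and 302 in Control and 418, 377 and 380.1 in THz. Control 2 was 1.72 times Control 3, and the means were 387 ± 118 and 392 ± 22.6 (SD, n = 3 each; log2 difference 0.06, SE 0.19). Its log2 difference turned with the library left out, being 0.29 without Control 2 (SE 0.09; adjusted p = 0.138), -0.10 without Control 3 and -0.02 without Control 1. The same order held for acdh-2, with 13.1, 24.7 and 6.39 FPKM in Control and 12.1, 18.4 and 14.7 in THz. There Control 2 was 3.87 times Control 3, the widest ratio among the tested members with that order (log2 difference 0.19, SE 0.41, but 0.64 without Control 2 and -0.26 without Control 3). For acdh-9 the values were 74.6, 117 and 62.7 FPKM in Control and 76.0, 83.1 and 76.4 in THz.

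A pair of neighbours on chromosome X showed the opposite order. The genes acdh-10, a medium-chain dehydrogenase, and acdh-7 lie on the minus strand with 88 bases between them, at 17213144 to 17214929 and 17215018 to 17217105 (WBcel235). FPKM of acdh-10 was 103, 72.7 and 109 in Control and 84.9, 90.8 and 88.0 in THz. FPKM of acdh-7 was 116, 81.9 and 124 in Control and 113, 106 and 111 in THz. In both genes Control 2 was lowest and Control 3 highest, by 1.5 and 1.52 times, and all THz values lay between (log2 differences -0.09 with SE 0.15 and 0.06 with SE 0.15).

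Of the other dehydrogenases, acdh-3, acdh-11, acdh-12 and acdh-13 varied less among the Control libraries. For acdh-11, which acts in heat adaptation by limiting the fatty acid desaturase gene fat-7, FPKM was 31.7, 36 and 33.1 in Control and 31.7, 32.8 and 29.7 in THz (log2 difference -0.09, SE 0.09). For acdh-12, related to mammalian very-long-chain dehydrogenase, it was 73.2, 80.1 and 76.9 in Control and 80.8, 70.9 and 69.8 in THz (log2 difference -0.06, SE 0.08). The groups overlapped in both. For acdh-13 the 6 values lay between 24 and 27.7 FPKM, and for acdh-3 between 67.9 and 85.9 FPKM. The lowest tested dehydrogenase was acdh-8, with 0.401, 1.79 and 0.673 FPKM in Control and 1.2, 0.951 and 1.42 in THz. Its highest Control value was 4.47 times its lowest, from 51 and 11 reads.

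Of the 9 tested enoyl-CoA hydratases 6 were higher and 3 lower in THz on the log2 scale, where ech-6 is counted as higher although its mean FPKM was lower, with a median log2 difference of 0.03; the median turned to -0.00264 without Control 1, with 4 higher and 5 lower, and to -0.05 without Control 3. For 6 of the 9 all THz values lay inside the Control range.

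The hydratase of the propionate shunt, ech-6, was the most abundant. Its FPKM was 353, 534 and 249 in Control and 370.2, 360.3 and 361 in THz. Control 2 was 2.14 times Control 3, while the THz libraries lay between them, the highest at 1.03 times the lowest (means 378 ± 144 and 364 ± 5.57, SD, n = 3 each; log2 difference 0.01, SE 0.24, but 0.29 without Control 2 and -0.25 without Control 3).

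Of the 2 genes related to the alpha subunit of the mitochondrial trifunctional protein, which carries a hydratase and a hydroxyacyl-CoA dehydrogenase activity, ech-1.2 was high and ech-1.1 low. FPKM of ech-1.2 was 98.0, 99.7 and 108 in Control and 106, 103 and 102 in THz (log2 difference 0.03, SE 0.07). FPKM of ech-1.1 was 1.37, 1.17 and 2.48 in Control and 1.73, 2.13 and 1.91 in THz (log2 difference 0.16, SE 0.23). In both the THz values lay inside the Control range.

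The hydratase gene ech-2 had 17.8, 20.9 and 20.8 FPKM in Control and 21.8, 22.2 and 21.8 in THz. All THz libraries were higher, by little over Control 2 and 3 (log2 difference 0.14, SE 0.11; adjusted p = 0.828). For ech-7, FPKM was 63.6, 70.9 and 53.6 in Control and 70.3, 74.5 and 69.8 in THz (log2 difference 0.20, SE 0.11, adjusted p = 0.827). Here Control 2 lay within the THz values. The 6 values lay between 70.1 and 80.3 FPKM for ech-4, whose protein also has an acyl-CoA binding domain, between 19.4 and 24.7 for ech-5 and between 6.46 and 9.40 for ech-3.

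Another pair of neighbours, ech-8 and ech-9, lies on the minus strand of chromosome IV with 1296 bases between the genes, at 10236626 to 10239176 and 10233321 to 10235329 (WBcel235). Their order across the Control libraries was opposite. FPKM of ech-8 was 7.37, 10.2 and 6.88 in Control and 6.98, 8.80 and 7.64 in THz. FPKM of ech-9 was 1.98, 0.0869 and 2.91 in Control and 0.927, 0.753 and 0.675 in THz, from 66, 3 and 105 reads in Control and 29, 24 and 23 in THz. It passed 1 FPKM in 2 libraries, both Control, and was not tested in the main fit.

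The other 8 genes below the filter were acs-6, acs-9, acs-10, acs-15, acs-18, acdh-4, acdh-5 and acdh-6. Their highest value was 1.37 FPKM, of acdh-6 in Control 3. The THz mean was 28.5% of the Control mean for acdh-6, the lowest share of the 8, and 192% for acs-6, the highest. FPKM of acdh-6 was 0.777, 0.393 and 1.37 in Control and 0.118, 0.425 and 0.181 in THz, from 3 to 40 reads a library, and the groups overlapped. In limma-voom, which tested it, its log2 difference was -1.75 (SE 0.69, unadjusted p = 0.0367, adjusted p = 0.836). The genes acs-15 and acdh-5 had 0 reads in Control 3, which at 3 reads allows up to 0.0622 and 0.0940 FPKM.

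The members were more variable in Control than in THz, as were genes at large. The median range between the 3 Control libraries was 0.40 on the log2(FPKM + 1) scale for members and 0.40 for all tested genes, and between the THz libraries 0.13 and 0.21. The Control range was the wider for 29 of 35 members (82.9%) and for 79.1% of all tested genes. Control 2 and Control 3 differed by over 0.5 on this scale in 16 members (45.7%) against 31.8% of all tested genes.

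Control 2 and Control 3 were the extreme libraries in 13 of the 35 tested members, in either order. In 8 (22.9%), acs-1, acs-5, acdh-1, acdh-2, acdh-3, acdh-9, ech-6 and ech-8, Control 2 was the highest and Control 3 the lowest of all 6 libraries, against 9.96% of all tested genes. In 5 (14.3%), acs-2, acs-17, acdh-7, acdh-10 and ech-1.1, Control 2 was lowest and Control 3 highest, against 15.1%. Of 11 tested moulting genes 8 had this second order, and their summed level differed between Control 2 and 3 as given above. Its part in the order of the members was not tested.

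**Figure D3:**
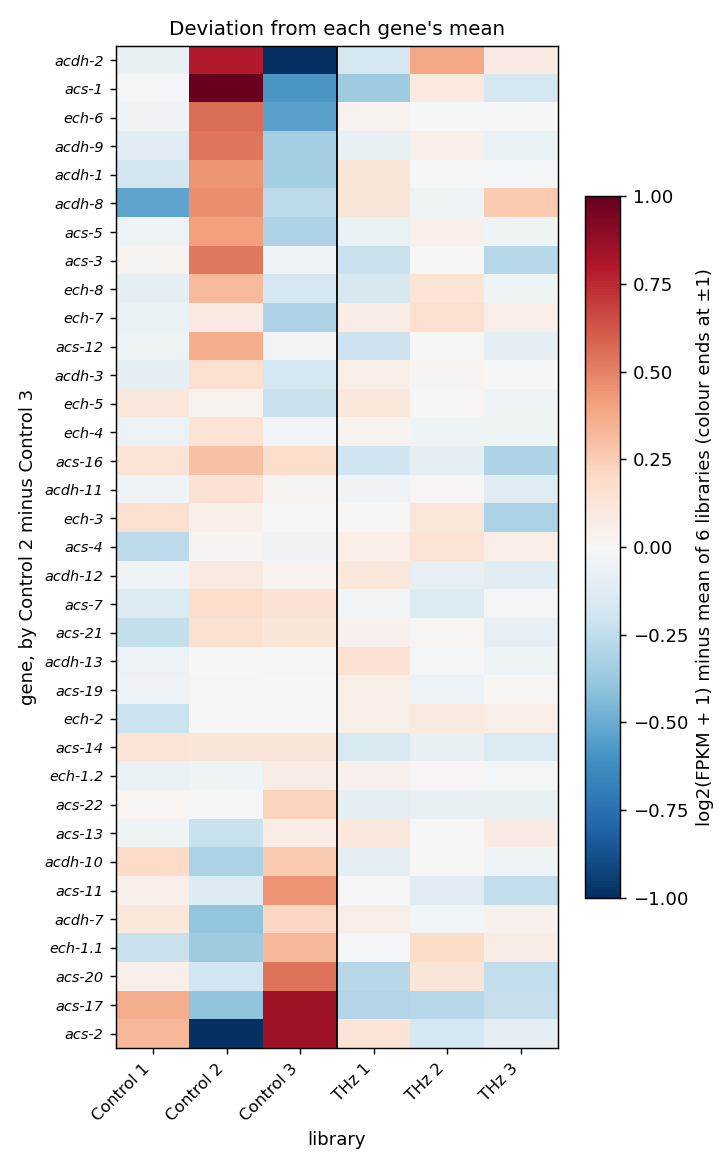
Deviation of each tested gene from its mean over the 6 libraries, on the log2(FPKM + 1) scale, with genes sorted by Control 2 minus Control 3. The strongest colours stand in the Control 2 and Control 3 columns, from acdh-2 and acs-1 at the top to acs-17 and acs-2 at the bottom, and the THz columns are pale.

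The partners of these enzymes were taken from 10 lists of pathway genes, which include the members where they belong. Without the members the lists held 77 tested genes, of which 35 were higher and 42 lower in THz, 1 higher and 2 lower at an unadjusted limma p below 0.05, and 0 at an adjusted p below 0.05. Without Control 2, cpt-4 of the carnitine shuttle, acox-1.5 of peroxisomal beta-oxidation and pmp-5 of the peroxisomal transporters, 1 gene of each list, passed that threshold. With library weights 21 of the 77 passed it, as did 3092 genes in all.

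Entry of acyl groups into mitochondria runs through the carnitine shuttle, whose 6 tested genes split 3 to 3, or 4 higher to 2 lower after quantile normalization and without Control 2, and 2 to 4 without Control 1. For cpt-1, a carnitine palmitoyltransferase, FPKM was 135, 128 and 153 in Control and 128, 127 and 128 in THz (log2 difference -0.11, SE 0.08). For cpt-4, of the same family, it was 6.83, 2.68 and 7.17 in Control and 3.27, 3.10 and 3.00 in THz (log2 difference -0.58, SE 0.31, adjusted p = 0.827). As with acs-17, the THz values were nearly equal and near the lowest library, Control 2.

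In the later steps of the turn, 3 of 4 tested hydroxyacyl-CoA dehydrogenase and thiolase genes were higher on the log2 scale, with log2 differences of 0.01 to 0.03, and hacd-1 lower, at -0.18 (SE 0.10); after quantile normalization all 4 were lower, and kat-1 had a mean FPKM of 167 in THz against 169 in Control. The thiolase gene kat-1 had the order of acdh-1, with 156, 220.4 and 131 FPKM in Control and 164, 172 and 165 in THz. For let-721, which passes electrons from the dehydrogenases to the respiratory chain, FPKM was 65.0, 82.9 and 67.7 in Control and 72.1, 72.0 and 66.7 in THz.

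Peroxisomal beta-oxidation, which shortens very long chains and ascaroside side chains, had 7 of 10 tested genes higher and 3 lower in THz (median log2 difference 0.08). FPKM of acox-3, an acyl-CoA oxidase, was 15.7, 13.9 and 16.4 in Control and 18.7, 18.2 and 19.9 in THz. The groups did not overlap (log2 difference 0.29, SE 0.11; adjusted p = 0.827). For daf-22, the thiolase that ends ascaroside shortening, it was 57.3, 59.4 and 59.7 in Control and 67.9, 58.0 and 60.8 in THz. The 16 tested peroxin and peroxisomal transporter genes split 9 higher to 7 lower (13 to 3 after quantile normalization, but 4 to 12 without Control 1 and 6 to 10 without THz 2), and prx-5, the import receptor, had 7.24, 8.18 and 7.39 FPKM in Control and 6.56, 7.86 and 6.79 in THz. Its list had its smallest p for pmp-1, at 5.94, 11.5 and 6.06 FPKM in Control and 5.90, 5.93 and 5.0 in THz (adjusted p = 0.828).

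**Figure D4:**
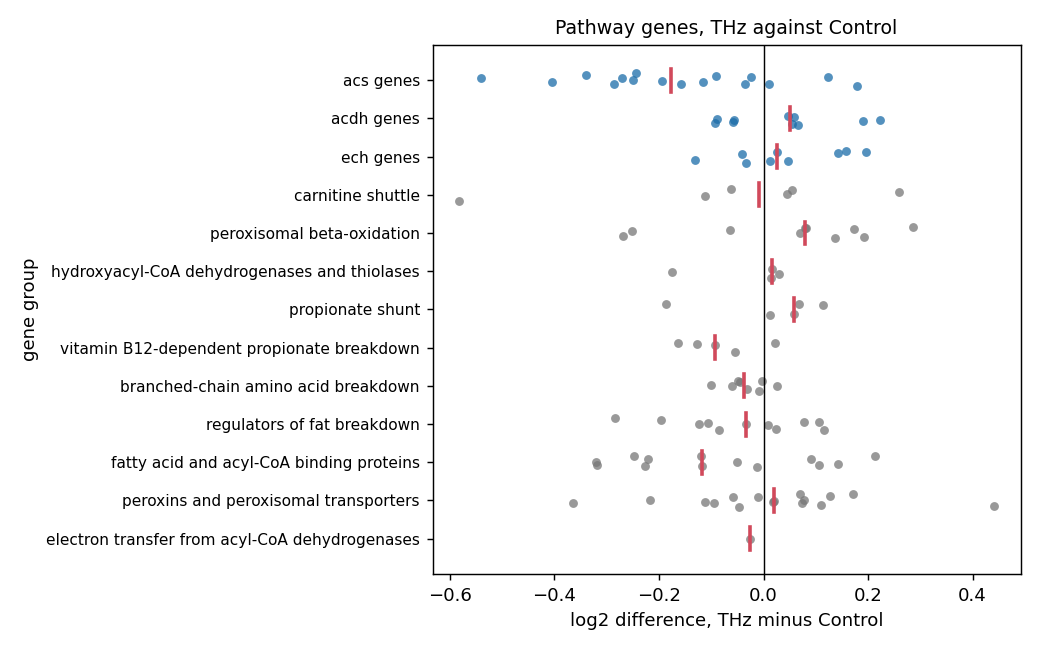
Log2 difference, THz minus Control on the log2(FPKM + 1) scale, of each tested gene by family (blue) and pathway list (grey), with the median of each as a red bar. Every group straddles 0 where it has more than 1 gene, and none of the points reached an adjusted p below 0.05.

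The propionate shunt joins acdh-1 and ech-6 to hach-1, hphd-1 and alh-8. Of these 5 genes 4 had Control 2 highest, Control 3 lowest and all THz values between, and 4 were higher in THz, but 2 without Control 1 and 1 without Control 3. FPKM of hach-1 was 94.7, 124 and 90.8 in Control and 114, 109 and 109 in THz, and of hphd-1 it was 123, 171 and 87.3 in Control and 136, 122 and 127 in THz. The last enzyme, alh-8, differed from them, with 766, 681 and 729 FPKM in Control and 652, 612 and 646 in THz. All its THz values lay below the Control values (log2 difference -0.19, SE 0.09; adjusted p = 0.827). Of the 5 genes of the vitamin B12-dependent route 4 were lower and 1 higher (5 lower after quantile normalization and without Control 1 or Control 3), with 150.1, 128 and 147 FPKM in Control and 122, 129 and 127 in THz for pcca-1, a subunit of propionyl-CoA carboxylase (log2 difference -0.16, SE 0.08), and 78.8, 79.9 and 77.2 against 75.9, 73.1 and 78.2 for the mutase gene mmcm-1.

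Breakdown of branched-chain amino acids feeds propionate and branched-chain acyl groups to these pathways. In all 8 tested genes of this list Control 2 was the highest library and Control 3 the lowest, and every THz value lay between. For bckd-1B, a subunit of the branched-chain ketoacid dehydrogenase, FPKM was 63.7, 99.9 and 53.5 in Control and 68.3, 68.7 and 68 in THz. The smallest p of this list was that of dld-1, a subunit shared with other ketoacid dehydrogenases, at 251, 279.7 and 216 FPKM in Control and 243, 230.5 and 238 in THz (log2 difference -0.06, SE 0.10, adjusted p = 0.907). Log2 differences between the groups ran from -0.10 to 0.03 in this list, 1 gene being higher and 7 lower; without Control 2 all 8 were higher, with a median of 0.12, and without Control 3 all 8 were lower, with a median of -0.14.

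**Figure D5:**
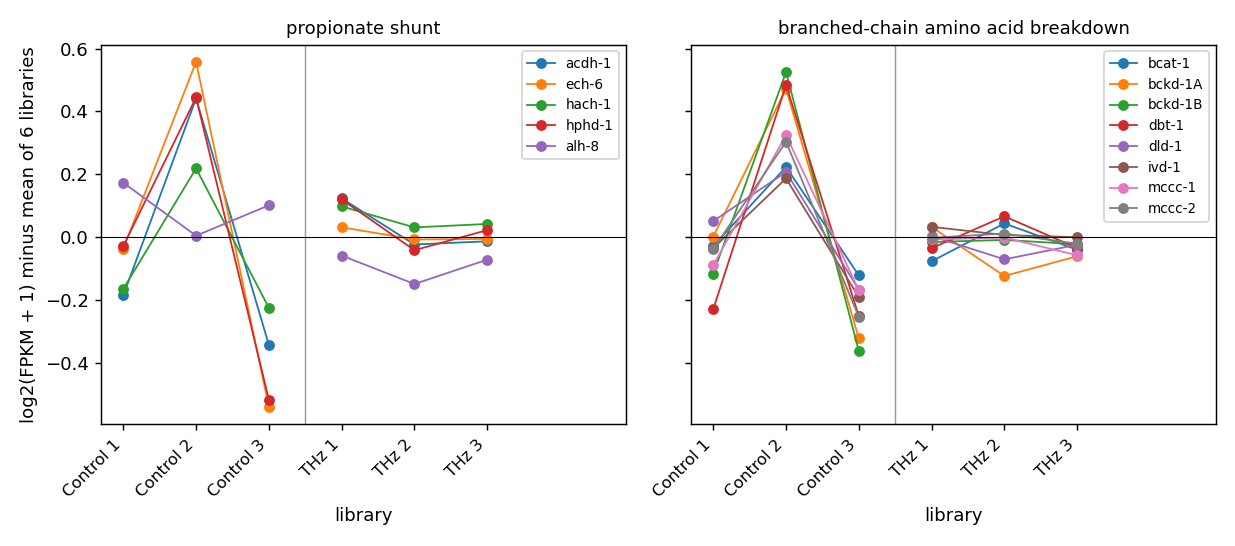
Deviation of each gene from its mean over the 6 libraries, on the log2(FPKM + 1) scale, for the propionate shunt (left) and branched-chain amino acid breakdown (right), with lines joining the libraries of a group only to follow a gene. All curves but that of alh-8 peak at Control 2 and are lowest at Control 3, and the THz points lie between.

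Among 11 tested regulators of fat breakdown 5 were higher and 6 lower, or 2 and 9 without Control 2 and 7 and 4 without Control 3. For nhr-68, a nuclear receptor that acts with nhr-10 to switch on the propionate shunt, FPKM was 35.9, 44.5 and 36.4 in Control and 31.9, 30.7 and 32.5 in THz. The groups did not overlap (log2 difference -0.28, SE 0.11; adjusted p = 0.827). For nhr-49, the receptor upstream of acs-2, it was 54.7, 57.4 and 63.2 in Control and 53.8, 51.7 and 54.9 in THz (log2 difference -0.12, SE 0.08). Of 13 tested genes for fatty acid and acyl-CoA binding proteins 4 were higher and 9 lower (6 and 7 after quantile normalization or without Control 1), and acbp-3 had groups that did not overlap, with 26.3, 24 and 28 FPKM in Control and 21.2, 20.47 and 20.4 in THz (log2 difference -0.32, SE 0.10; adjusted p = 0.827). FPKM of acbp-1, an acyl-CoA binding protein gene of the same family, was 166, 127 and 100.9 in Control and 125, 102 and 105 in THz.

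Some values have limits of counting. Exons of 12 members share bases with another coding gene, among them acs-22 with dylt-2 (44 bases, other strand), acs-13 with Y65B4BL.7 (195 bases, same strand) and acdh-2 with ins-13 (87 bases, same strand). The library kit as labelled does not state that strand was kept, so shared reads could not be assigned. In 10 members, acs-14, acs-13, acs-11, acs-17, acdh-1, acdh-2, acdh-11, ech-2, ech-4 and ech-6, the FPKM values did not work back to whole reads with the deposited gene length. For these a level relative to other genes is less sure than the ratio between libraries.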

How the data were processed

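Whole-worm polyA RNA was extracted with TRIzol and made into TruSeq v2 libraries, per the labels' protocols. The authors deposited 1 table of FPKM values per gene and library with coordinates and gene lengths; build WBcel235 and the tools DESeq 1.10.1, HTSeq 0.5.4 and STAR are listed in the submitters' processing notes, without their roles. How genes were annotated and how reads shared between genes were counted is not given in the sources used here. Members and gene lists were chosen with earlier results of these data known.

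FPKM values as deposited, on the scale log2(FPKM + 1), were fitted for genes that reached 1 FPKM in 3 or more libraries with limma 3.58.1 (trend, R 4.3.3), 3 THz against 3 Control libraries, in a two-sided test at a threshold of 0.05 after Benjamini-Hochberg adjustment across the 12174 genes kept. The script was tested on simulated data. A log2 difference on this scale understates the change of a low gene. An exact permutation of 3 against 3 libraries cannot go below p = 0.1, so no such test was used.

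FPKM times length was compared with the worth of 1 read in each library: 88.7% of values above 0 were whole reads (within 0.05 of a read) and 34 of 44 members were whole in every library. Those recovered reads went into limma-voom as an alternative, and no count test was a main result. The floor for a value of 0 is 3 reads and covers counting error only.

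Values in every library are given for members whose groups did not overlap, the 10 with the smallest p, the 5 highest in level, the 5 with the widest Control range, and a fixed list with known roles; acs-5, acs-12, acs-21, acdh-3, acdh-7, acdh-8, acdh-9, acdh-13, ech-3, ech-4 and ech-5, and the genes below the filter other than ech-9, fell outside this rule and are given to account for all members. Pathway genes named are the gene with the smallest p of each list and a well-known gene, with hach-1, hphd-1, bckd-1B and acbp-1 added after their values were seen. A gene whose symbol has since become an acs name is not matched by the rule and was not used. Of the pathway genes, mccc-2 (branched-chain amino acid breakdown) and hadb-1 (hydroxyacyl-CoA dehydrogenases) were found by the current names of their identifiers. Their rows carry the deposited names lgc-56 and B0303.3. In total 17 alternatives were run. Figures were drawn with matplotlib 3.10.9.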

Additional observations from a re-analysis of the deposited data

How the results depend on the processing

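Deviations from the group mean had correlations of -0.012, -0.136 and 0.028 between same-numbered Control and THz libraries. Between differently numbered ones they ran from -0.234 to 0.210. With 3 libraries a group, these values cannot show whether the numbers mark pairs. A fit with a replicate block, pairing those numbers, called 0 genes and 0 members, and left 0 members and 532 genes at an unadjusted p below 0.05, against 2 and 714. Library weights gave Control 2 a weight of 0.18, Control 3 0.293 and Control 1 4.29, and THz 1 to 3 weights of 1.32, 0.935 and 3.59. The weighted Control mean thus rested mostly on Control 1. With these weights 3092 of 12174 genes and 7 of 35 members (ech-2, acs-14, acs-17, acs-4, acs-16, acdh-8 and acdh-10) were called. An unadjusted limma p below 0.05 was reached by 13 members and by 5101 genes. The median log2 difference moved to 0.0239 over the members and to 0.0180 over all tested genes. The cause was not tested. Leaving out 1 library at a time gave 0 to 237 genes and 0 to 1 member called. At an unadjusted limma p below 0.05 it gave 287 to 2121 genes and 0 to 10 members. The members' median ran from -0.0677 to 0.0213. The highest of each came without Control 2. The count of members at that unadjusted p was 1 with a pseudocount of 0.1 FPKM, after quantile normalization and with robust moderation. It was also 1 with a filter of 5 FPKM, which removed acs-16. Among genes at an unadjusted p below 0.05 the share lower in THz was 68.3%, but 50.6% after quantile normalization, 81.7% without trend and 45.4% with library weights. Of the recomputed log2 differences of the named members 7 passed the threshold and the rest did not. In 10 named members 19 of these values had the opposite sign, in 9 of them on leaving out 1 library. The widest turns over the alternatives were -0.65 to 0.15 for acs-1, -0.64 to 0.31 for acs-2, -0.26 to 0.64 for acdh-2, -0.25 to 0.29 for ech-6 and -0.10 to 0.29 for acdh-1, and acs-7 changed to 0.08 with library weights. The spread between the Control libraries limits what 3 libraries a group can show, as in acs-2, whose log2 difference of -0.09 has a standard error of 0.43. The filter of 5 FPKM gave no value for acs-16, acs-20, acs-3 and ech-1.1.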
